A study of Mus musculus with 3 samples.

Results

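The genes described here are a set of 10 that mark tissue macrophages or make complement C1q: C1qa, C1qb, C1qc, Mertk, Axl, Slc40a1, Hmox1, Spic, Vcam1 and Adgre1. They were taken by symbol, as every probe set that the platform annotation assigns to exactly 1 gene and whose gene is one of these names. That gave 17 probe sets for all 10 genes, among 34945 single-symbol probe sets of 18193 genes. A probe set is a group of short probes on the array that together report 1 transcript. RNA came from sorted mouse CD8+ T cells and was measured on 3 Affymetrix mouse 430 2.0 arrays. In the mutants (KO), both alleles of Tgfbr2, the type II receptor for TGF-β, were floxed and Cre was driven by the Cd4 promoter. Cre of this kind acts in T cells that pass through a CD4-expressing thymocyte stage, so CD8+ T cells lose the receptor too. One array held NK1.1+ and one NK1.1- CD8+ cells of mutants 15 to 17 days old, and one held cells of littermates with 1 floxed and 1 wild-type allele and the same Cre (control). The age is stated for the mutants. The labels call the control cells NK1.1- in some places and total CD8+ cells in another. The sources used here do not say whether animals were pooled. With 1 array a group, no difference below has a replicate check, and none was tested statistically.

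C1q is the recognition part of the classical complement pathway. It binds antibody complexes and dying cells, and macrophages are a main source of it, unlike most complement proteins, which come from the liver. Macrophages of the spleen's red pulp clear old red cells. They depend on the transcription factor Spi-C, carry VCAM-1, break down heme with heme oxygenase and pass the iron out through ferroportin. Mertk and Axl are receptor kinases through which macrophages take up dying cells. None of these functions is a usual one of CD8+ T cells, the cells that were sorted here.

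Upstream sequence was available for 5 of the 10 genes in the RefSeq promoter table (GRCm38.p6). The 250 bases before the start are shown for C1qb, C1qc and Mertk, because these 3 were above the level used for measured values in the NK1.1+ KO sample and below it on both other arrays. Capitals mark matches, on either strand, to GAGGAA, the core of the box that the macrophage factor PU.1 and its relative Spi-C bind. C1qb lies at chr4:136886201-136886450 and C1qc at chr4:136892915-136893164, both on the minus strand, and Mertk at chr2:128698665-128698914 on the plus strand.
C1qb: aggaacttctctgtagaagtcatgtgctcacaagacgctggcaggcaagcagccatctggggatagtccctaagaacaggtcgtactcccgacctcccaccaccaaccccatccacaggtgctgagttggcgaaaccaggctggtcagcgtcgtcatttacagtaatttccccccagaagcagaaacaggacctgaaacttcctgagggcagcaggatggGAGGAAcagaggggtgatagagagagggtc
C1qc: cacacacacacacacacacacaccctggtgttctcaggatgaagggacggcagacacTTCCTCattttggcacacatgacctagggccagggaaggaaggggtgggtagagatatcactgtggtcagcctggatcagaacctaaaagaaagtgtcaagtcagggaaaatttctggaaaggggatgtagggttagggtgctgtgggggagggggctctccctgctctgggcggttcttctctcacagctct
Mertk: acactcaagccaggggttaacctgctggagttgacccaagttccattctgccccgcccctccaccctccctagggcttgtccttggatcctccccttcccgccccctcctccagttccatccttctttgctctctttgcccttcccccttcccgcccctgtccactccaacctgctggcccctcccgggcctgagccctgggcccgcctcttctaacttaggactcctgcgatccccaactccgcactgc

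The GAGGAA match began 30 bases before the start in C1qb, on the coding strand, and 193 bases before it in C1qc, on the other strand. Mertk and Spic had 0 matches in this window and Axl had 1. Of all 32851 promoters in the table, 23.3% held the motif in the same 250 bases. The AP-1 motif TGAGTCA and the TATA box TATAAA, present in 4.46% and 12.4% of promoters, were found in 0 of these 5. C1qa, C1qb and C1qc are neighbours on chromosome 4, with 0 other annotated genes between them. The matches are descriptions of sequence, and no binding was measured.

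The deposited values are intensity values on a linear scale after GCRMA, which removes background by probe sequence. Values of 10.3 or more were taken as measured. This level is the value that 95% of readings lay under in a background set of 145 probe sets, over the 3 arrays, for genes of odour, pheromone and taste receptors, hair keratin-associated proteins and crystallins. A gene was read from its probe set with the highest mean log2 value, dimmer values were set to the level, and a difference of at least 1 on the log2 scale, or 2-fold, was called. Where one side lay below the level, only a lower bound is known, marked "at least". The background set was not equally dim on the 3 arrays. Its own 95th percentile was 21.3 in the NK1.1+ KO sample, 9.63 in the NK1.1- KO sample and 9.03 in the control sample. In the NK1.1+ KO sample 13 of the 145 reached the level, against 6 and 3 on the others. The ratio of 3′ to 5′ Actb signal, a measure of RNA integrity and labelling, was 81.9 in the NK1.1+ KO sample, 12.3 in the NK1.1- KO sample and 6.02 in the control sample, and the same ratio for Gapdh was 10.8, 26.7 and 17.8. The median over 18 hybridisation control probe sets was 3104, 1041 and 1281 in the same order. The part of these array differences in the results was not tested.

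By its brightest probe set the targeted gene, Tgfbr2, had an intensity of 1808 for NK1.1+ KO cells, 1271 for NK1.1- KO cells and 2634 for the control. Whether that set reads the deleted part is not known, so it does not check the labels. The T cell label was checked by the chains of the T cell receptor complex. Cd3e read 776 in the NK1.1+ KO sample, 750 in the NK1.1- KO sample and 701 in the control sample. In the same order Cd3d read 738, 1616 and 2275, Cd3g 1185, 2805 and 4146, and Cd247 239, 556 and 840.2. Cd8a, by its brightest probe set, read 524, 1027 and 1786. These genes were measured on every array, and each but Cd3e was lowest in the NK1.1+ KO sample.

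By brightest probe set, 5 of the 10 genes were called higher in the NK1.1+ KO sample. These were Vcam1, Slc40a1, C1qb, Adgre1 and Mertk, against either other array. Against control, Vcam1 was 69.7-fold, Slc40a1 22.7-fold, C1qb at least 14.5-fold, Adgre1 at least 6.47-fold and Mertk at least 2.98-fold higher. C1qc and Spic were measured but not called, and C1qa, Axl and Hmox1 lay below the level on all 3 arrays. None of the 10 was called lower in any comparison. Of all 10347 genes measured on either of these arrays, 9.78% were called higher and 23.0% lower, and the median log2 difference was -0.19, against 2.69 over the 7 measured members. Of these calls over all genes, 29.9% were higher, and 40.7% after quantile normalization or 47.7% after setting equal array medians, under which the same 5 members were called. On 4 of those 7 the control value was below the level, so that they could not be lower. Of the 956 genes in that position, 35.0% were called higher. In sorted bulk RNA, more cells of a type and more RNA per cell cannot be told apart.

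**Figure D1:**
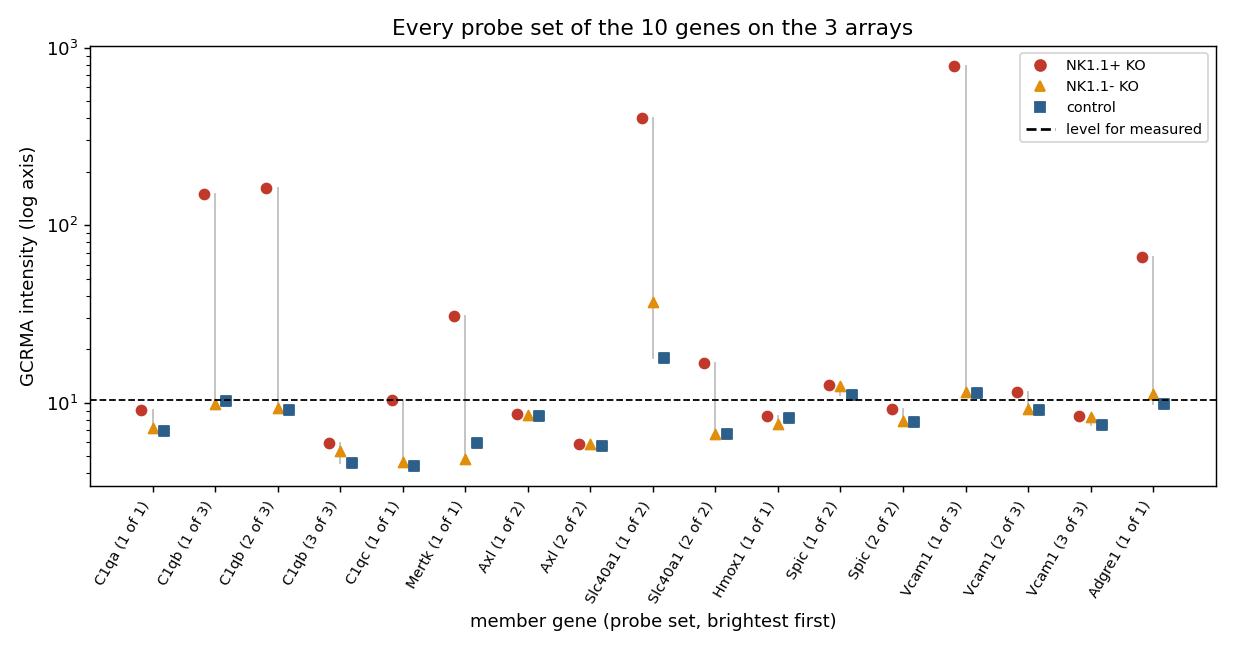
Deposited GCRMA intensity (log axis) of all 17 probe sets of the 10 genes, numbered within each gene from the brightest, on the NK1.1+ KO (circles), NK1.1- KO (triangles) and control (squares) arrays; the dashed line is the level of 10.3. The circles of Vcam1 (789), Slc40a1 (403) and C1qb (149 and 163) stand far above the other arrays, while other probe sets of the same genes lie at or under the line.

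Of the 17 probe sets, 10 reached the level in the NK1.1+ KO sample, 4 in the NK1.1- KO sample and 3 in the control sample. Against control, 6 of them were called higher in the NK1.1+ KO sample and 0 lower, where 8.81% of all 18002 measured probe sets were called higher. Of the 10 genes, 5 had a single probe set, 3 had 2 and 2 had 3.

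The C1q chains were read unevenly. C1qb, the B chain of the C1q hexamer, has 3 probe sets. The brightest, 1434366_x_at, read 149 in the NK1.1+ KO sample, 9.84 in the NK1.1- KO sample and 10.2 in the control sample. A further one, 1437726_x_at, read 163, 9.29 and 9.14 in the same order. Both were high in the NK1.1+ KO sample alone, at least 14.5-fold and at least 15.8-fold above either other array. The remaining one, 1417063_at, read 5.90, 5.37 and 4.60 and was below the level throughout, so the probe sets of C1qb disagree. The suffix x marks a set with probes that can also match other transcripts, and the set without that suffix was the dark one. Only 1 of the 145 background probe sets reached the value of either bright C1qb set in the NK1.1+ KO sample.

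C1qc, the C chain, had 1 probe set, which read 10.4 in the NK1.1+ KO sample, 4.65 in the NK1.1- KO sample and 4.39 in the control sample. The first value just passed the level and the others were below it, which left a log2 difference of 0.010 after values were raised to the level. Without any level the log2 difference from control was 1.24. In the NK1.1+ KO sample 13 of the 145 background probe sets were as bright or brighter. C1qa, the A chain, read 9.05, 7.22 and 6.91 with its 1 probe set and was below the level on every array. The functional molecule contains all 3 chains, and with the level in use C1qb alone of these was called, by its probe sets of the x type.

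The uptake receptors differed from each other. Mertk had 1 probe set, which read 30.7 in the NK1.1+ KO sample, 4.82 in the NK1.1- KO sample and 5.91 in the control sample. It was at least 2.98-fold above both other arrays, and only 5 of 145 background probe sets were as bright on its array. With the level set from the background set of the NK1.1+ KO sample alone (21.3), the log2 difference was 0.53, under the 2-fold line. Axl, the related kinase, read 8.59, 8.49 and 8.42 with its brighter probe set and 5.87, 5.81 and 5.73 with the other. Axl was not detectable on any array, and no difference can be read from it. Tyro3, the remaining kinase of this family, read 11.8, 11.6 and 11.9, close to the level and with no called difference. Of the ligands that bridge these kinases to dying cells, Gas6 was below the level on all arrays and Pros1, which encodes protein S, read 15.7, 19.8 and 18.2.

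The iron and heme genes were led by Slc40a1, which encodes ferroportin, the exporter that releases iron from macrophages. Its brighter probe set, 1417061_at, read 403 in the NK1.1+ KO sample, 36.9 in the NK1.1- KO sample and 17.8 in the control sample. It was measured on all 3 arrays, which among the called genes held for Slc40a1 and Vcam1 alone. The NK1.1+ KO sample was 22.7-fold above control and 10.9-fold above the NK1.1- KO sample. The NK1.1- KO sample was 2.08-fold above control, just past the line, where 8.07% of 9830 measured genes were called higher and 5.57% lower. That was the single call among the 10 genes in this comparison. Under the mean of both probe sets the log2 difference was 0.53, and under quantile normalization it was 0.97. The other Slc40a1 probe set, 1448566_at, read 16.8, 6.66 and 6.63, which gave a log2 difference of at least 0.71 between NK1.1+ KO and control.

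Hmox1, the inducible heme oxygenase that frees iron from heme, read 8.38 in the NK1.1+ KO sample, 7.54 in the NK1.1- KO sample and 8.17 in the control sample, all below the level. Spic, which encodes Spi-C, was read by 2 suffixed probe sets. The brighter read 12.6, 12.4 and 11.1, a little above the level on every array, and the NK1.1+ KO sample exceeded control by 0.18 on the log2 scale. The other read 9.19, 7.87 and 7.74, below the level throughout. In the NK1.1+ KO sample 12 of 145 background probe sets were as bright as the brighter Spic set. Neither Spic nor Hmox1 was called in any comparison.

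Vcam1 encodes an adhesion molecule of activated endothelium, stromal cells and red pulp macrophages. Its brightest probe set, 1448162_at, read 789 in the NK1.1+ KO sample, 11.4 in the NK1.1- KO sample and 11.3 in the control sample. The NK1.1+ KO value was 69.7-fold above control and 69.04-fold above the NK1.1- KO value, and the latter arrays differed by 0.014 on the log2 scale. Only 11 of 10347 measured genes had a larger difference from control, and 4 of 10337 a larger one from the NK1.1- KO sample. The other 2 probe sets were nearly dark: 1415989_at read 11.5, 9.25 and 9.11, and 1451314_a_at read 8.37, 8.27 and 7.46. When all 3 were averaged the log2 difference from control was 2.04, in place of 6.12.

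Adgre1 encodes an adhesion-type receptor used as a surface marker of mouse macrophages. Its single probe set read 66.6 in the NK1.1+ KO sample, 11.2 in the NK1.1- KO sample and 9.85 in the control sample. The NK1.1+ KO sample was at least 6.47-fold above control and 5.94-fold above the NK1.1- KO sample. In the NK1.1+ KO sample 2 of 145 background probe sets were as bright. With a stricter level of 54.0, which 75% of all values lay under, its log2 difference from control was 0.30, and Mertk lay below that level on all arrays. The NK1.1- KO and control values were within 0.12 of each other on the log2 scale after raising values to the level.

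**Figure D2:**
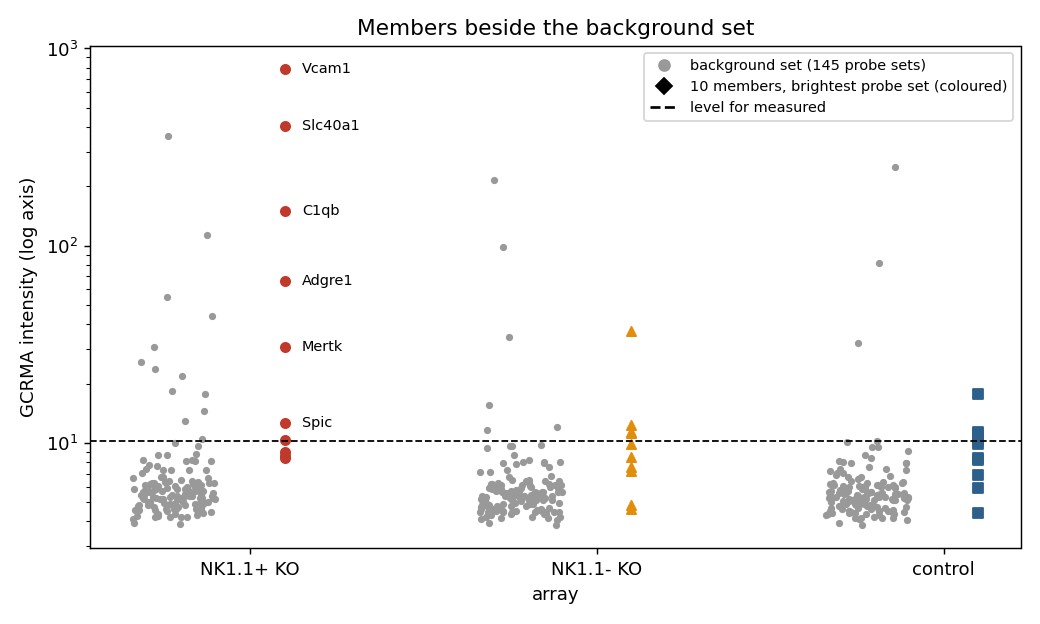
GCRMA intensity (log axis) of the 145 background probe sets (grey) and of the brightest probe set of each of the 10 genes (coloured) on each array, with the level of 10.3 dashed. In the NK1.1+ KO sample Vcam1 (789) and Slc40a1 (403) lie above every grey point, Mertk (30.7) has 5 grey points at or above it, and Spic (12.6) lies among the brighter of them.

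The NK1.1+ KO and NK1.1- KO cells came from mice of the same genotype, and the comparison asks what the NK1.1 gate separates. The same 5 genes were called higher in the NK1.1+ KO sample: Vcam1, Slc40a1, C1qb, Adgre1 and Mertk, with 0 lower. Of 10337 genes measured on either array, 6.39% were called higher and 21.3% lower. Their median log2 difference was -0.26, against 2.57 over the 7 measured members. On 3 of those 7 the NK1.1- KO value was below the level, so that they could not be lower, and of the 839 genes in that position 31.0% were called higher. This comparison shares the NK1.1+ KO sample with the one against control, so the matching calls are not separate evidence. Between the NK1.1- KO and control samples, 4 of the 10 genes were measured and 1 was called, with a median log2 difference of 0.14.

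**Figure D3:**
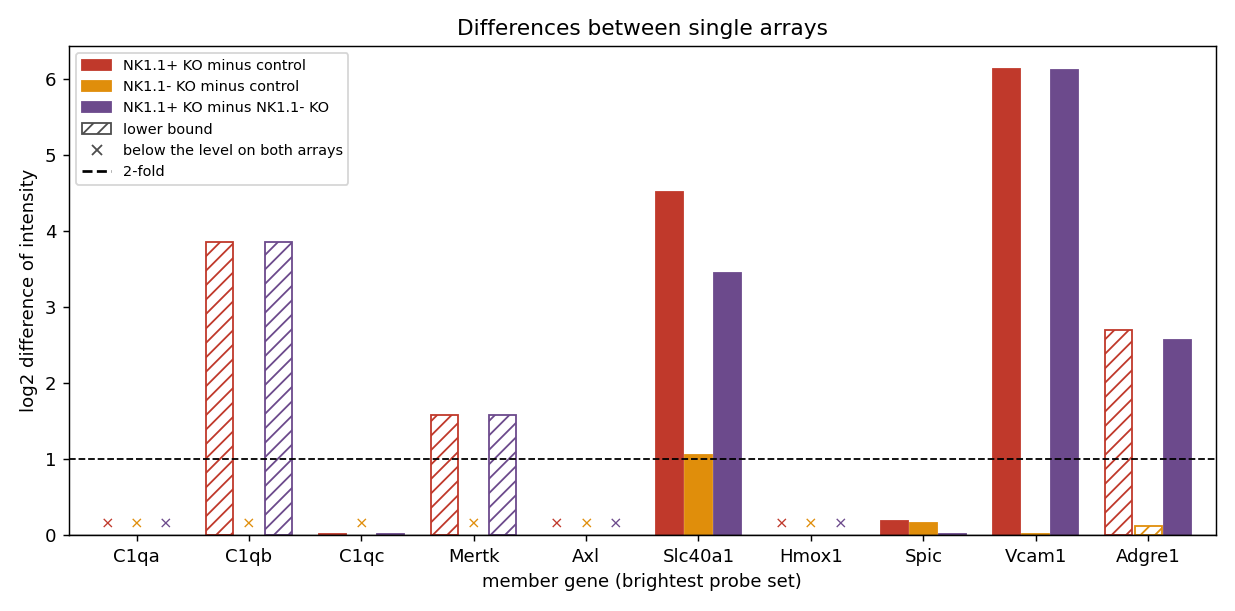
Log2 differences of intensity for the brightest probe set of each gene in the 3 comparisons; hatched bars are lower bounds, crosses mark genes below the level on both arrays, and the dashed line is 2-fold. Vcam1 (6.12) and Slc40a1 (4.50) are the tallest bars with both sides measured, and the NK1.1- KO minus control bar passes the line for Slc40a1 alone (1.05).

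**Figure D4:**
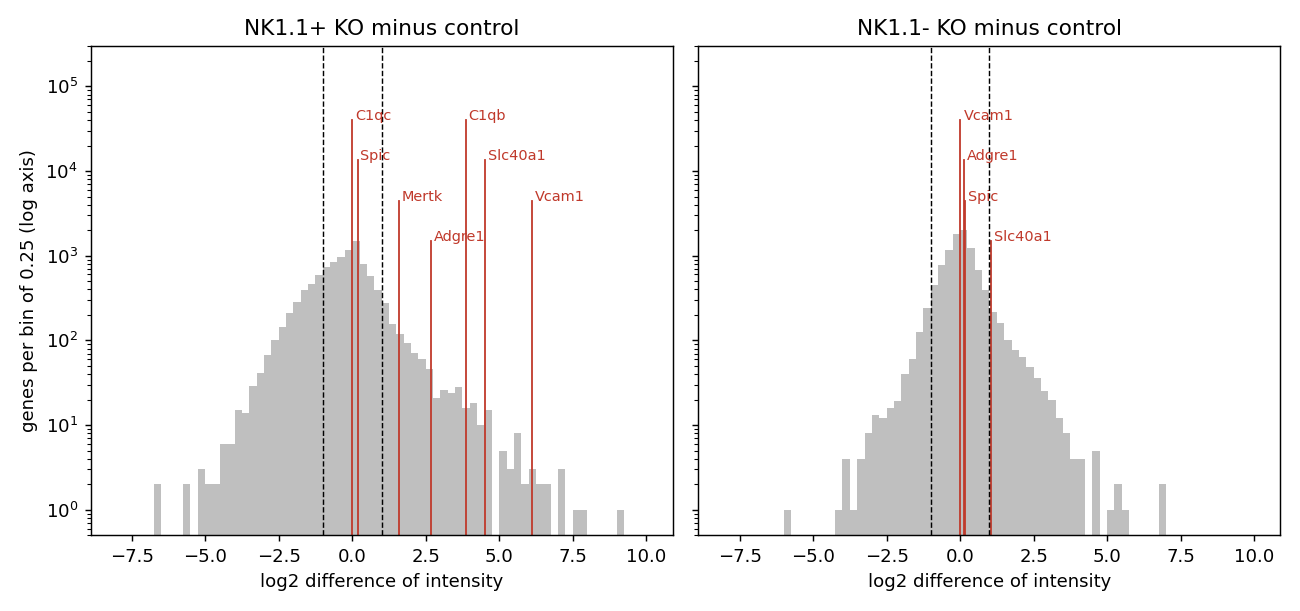
Number of measured genes (log axis) in bins of log2 difference, for NK1.1+ KO minus control on the left and NK1.1- KO minus control on the right, with the measured members of the set as red lines and 2-fold as dashed lines. On the left Vcam1, Slc40a1 and C1qb lie in the sparse upper end, with 0.106%, 0.435% and 0.812% of genes beyond the plotted values, that of C1qb being a lower bound; on the right every member but Slc40a1 lies near 0.

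The order of the members by fold against control (Vcam1, Slc40a1, C1qb, Adgre1, Mertk) was also their order of intensity in the NK1.1+ KO sample. For C1qb, Adgre1 and Mertk, whose control values were set to the level, these orders had to match. Intensities of different probe sets also cannot be ranked as amounts of RNA. Of the genes whose values over the 3 arrays followed each member most closely, by Euclidean distance between log2 values centred per gene, Slc40a1 had Ly86 (distance 0.21), Fgr (0.30) and Mpeg1 (0.33), all known from myeloid or B cells. Ly86 read 496, 46.9 and 26.6 and, like Slc40a1, was intermediate in the NK1.1- KO sample. Vcam1 had Igk (0.30), an immunoglobulin light chain gene, Tnfaip2 (0.31) and Fpr2 (0.34), a formyl peptide receptor of phagocytes. Fpr2 read 830, 14.5 and 9.86. C1qb had Lrp1, Mid1 and Neto2, Adgre1 had Dzank1, Cebpb and Tcf7l2, and Mertk had Id4, Mrc1 and Hbb-bh1. The neighbours of C1qb and Mertk were below the level on both other arrays, as were C1qb and Mertk, so their likeness rests on 1 value each. Only 3 arrays enter each distance, over 10534 genes.

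Related genes were read from lists and are given for NK1.1+ KO against control, with the 9.78% higher and 23.0% lower of all genes as the background. Of 45 names of other complement components, regulators and receptors, 36 were on the array and 11 were measured on either array of this pair, of which 1 was called higher and 3 lower (median -0.19). Genes below the level in control could only be called higher or not at all: there were 3 such genes here, the 1 called higher among them. The proteases that join C1q in the C1 complex were dark: C1ra read 5.98, 6.19 and 6.17, and C1s1 8.06, 8.11 and 7.94. Itgax, the α chain of a complement receptor integrin, read 104 in the NK1.1+ KO sample, 187 in the NK1.1- KO sample and 9.88 in the control sample. It was high on both KO arrays, unlike C1qb. Cd55, which encodes a protector against complement, fell by 2.30 on the log2 scale, Cr2 by at least 1.17 and C1qbp, a mainly mitochondrial protein named for C1q binding, by 1.24. Cfp, which encodes properdin, read 472, 248 and 238 and was just under the line at 0.99. Under equal medians of the arrays, 2 genes of this list were called higher and 1 lower.

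Of 35 other genes for uptake of dying cells, 23 were measured, 7 of them called higher and 3 lower (median 0.46). Of these, 5 were below the level in control; among the 18 measured there, 3 were called higher and 3 lower (median 0.31). Tgm2, a transglutaminase active in that uptake, read 660 in the NK1.1+ KO sample, 14.1 in the NK1.1- KO sample and 15.1 in the control sample. Its 4 measured probe sets ranged from 0.021 to 5.83 in log2 difference. Lrp1, a scavenger receptor, read 149, 8.72 and 8.64 with 1 of its 2 probe sets. Scarb1, a lipoprotein receptor, read 547, 187 and 114, with 3 probe sets from -0.12 to 2.26 in log2 difference, and Cd300lb was at least 4.15-fold higher. Itgb3, the β3 integrin chain, fell by 3.62 on the log2 scale.

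Of 40 other iron and heme genes, 25 were measured, 4 of them called higher and 6 lower (median -0.50). Among the 21 measured in control, 1 was called higher and 6 lower. Hp, which encodes the hemoglobin-binding protein haptoglobin, read 68.8, 7.42 and 6.93. Falling were Alas1, the first enzyme of heme synthesis (by 3.10 on the log2 scale), Tfrc, the transferrin receptor that brings iron into dividing cells (by 2.38), the iron importer gene Slc11a2 (by 2.17) and Txnrd1 (by 1.79). Fth1, which encodes a ferritin chain, read 1408, 1913 and 2643, and Hmox2, the constitutive partner of Hmox1, 148, 274 and 226. Blvrb and Hamp were below the level on all arrays. The median of this list lay below 0, as did that of all genes, while Slc40a1 stood at 4.50.

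Of 17 genes for partners of Vcam1 in adhesion, 9 were measured, 3 of them called higher and 4 lower (median -0.58), with 2 and 4 among the 8 measured in control. Itga4, the α4 chain of the receptor for VCAM-1, read 7019 in the NK1.1+ KO sample, 8022 in the NK1.1- KO sample and 2993 in the control sample. Its 5 probe sets ranged from 0.0011 to 2.29 in log2 difference from control. Itgb1, which pairs with it, read 654, 2606 and 596, and Itgb7, an alternative partner, 538, 1475 and 2270. The 5 measured probe sets of Itgb1 disagreed, from -0.57 to 2.30 in log2 difference between NK1.1+ KO and control. The α9 chain gene Itga9 was at least 4.09-fold higher, while Icam2 fell by 1.72 and Pecam1 by at least 2.17 on the log2 scale. Of 19 names of macrophage transcription factors, 13 were measured, with 3 called higher and 3 lower (median 0.29). Spi1, which encodes PU.1, read 16.7, 9.59 and 8.74, a log2 difference of at least 0.70 that was not called. Spib, the other relative of Spic, read 6.80, 6.32 and 22.2. Cebpb was 6.18-fold, Runx3 3.61-fold and Irf8 2.21-fold higher, while Id3 fell by 3.21 and Stat3 by 1.67 on the log2 scale. The NK1.1- KO sample shared part of this: against control Runx3 was 2.70-fold and Irf8 2.55-fold higher there, and Id3 fell by 1.82. Cebpb and Stat3 were not called there. Measured probe sets ranged from 0.32 to 1.14 for Irf8 and from -1.67 to 0.54 for Stat3 in log2 difference between NK1.1+ KO and control.

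**Figure D5:**
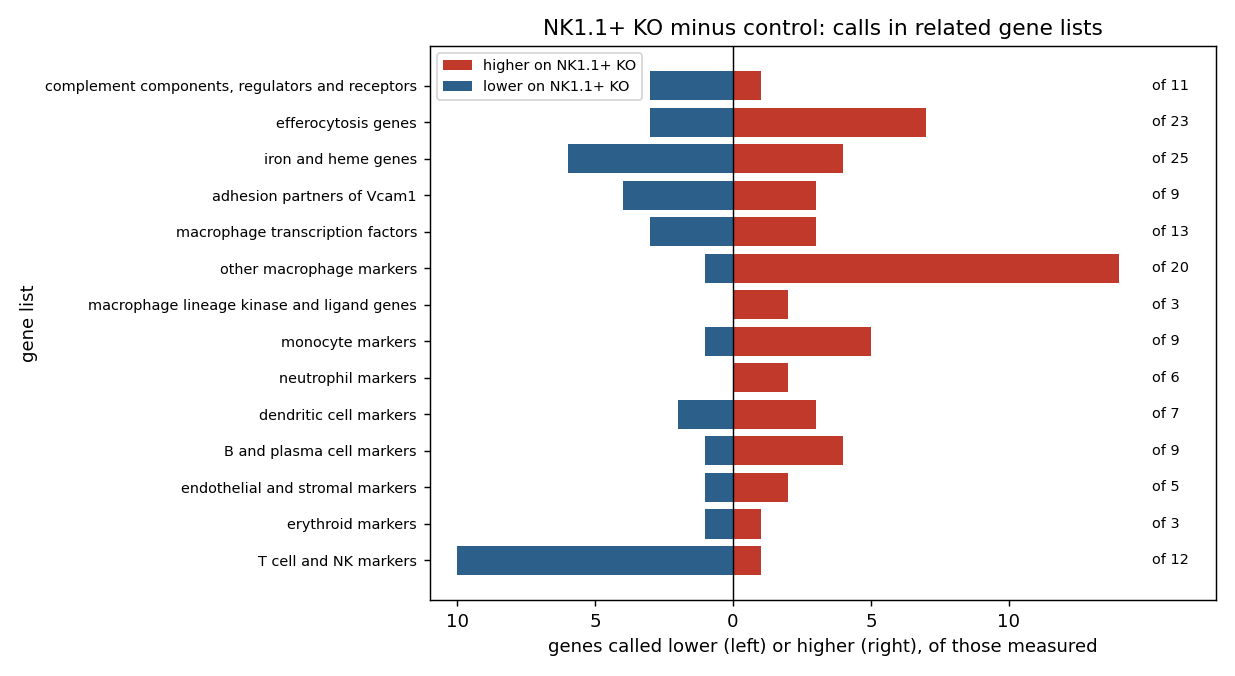
Number of genes called higher (red, right) or lower (blue, left) in the NK1.1+ KO sample than in the control sample in each list, with the number measured at the right edge. The list of other macrophage markers has 14 of 20 higher, where 11 of the 20 were below the level in control and could not be lower, and that of T cell and NK markers, all measured in control, has 10 of 12 lower.

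Markers of the cell types that could carry these genes were set beside them. Of 31 other macrophage markers, 20 were measured on either array, 14 called higher and 1 lower in the NK1.1+ KO sample than in control (median 1.84). Of the 20, 11 were below the level in control and could not be lower, a position in which 35.0% of all genes were called higher. Among the 9 measured in control, 5 were called higher and 1 lower (median 1.76). The number called higher was 8 with the level at 54.0 or with log2(value + 32), and 9 with the level at 21.3. The summed intensity of the whole list was 14619 in the NK1.1+ KO sample, 2896 in the NK1.1- KO sample and 1792 in the control sample. Without its 2 brightest genes, Csf1r and Cx3cr1, the sums were 4903, 2274 and 1747. The largest differences were those of Csf1r, the receptor for macrophage growth factor (7666, 54.5 and 30.5), Cx3cr1 (2049, 568 and 14.5), Tyrobp (1183, 52.6 and 21.6), Fcgr4 (386, 5.63 and 5.59) and Fcer1g (261, 5.76 and 6.17). The 3 measured probe sets of Csf1r ranged from 1.79 to 7.97 in log2 difference from control. Cx3cr1, Tyrobp and Fcer1g are also used by NK or effector T cells. The 1 macrophage marker called lower was Lgmn (9.04, 12.2 and 64.7). Of the same list, Cd14, Itgam, Apoe, Trem2, Folr2 and Lyve1 were below the level on every array. Markers of particular resident macrophages, picked here after their values were seen, divided: Cd163 (31.05) and Cd5l (44.7) passed the level in the NK1.1+ KO sample alone, and Timd4, Vsig4, Marco, Siglec1 and Clec4f were below it on every array. Of 9 measured monocyte markers 5 were called higher and 1 lower (2 and 1 among the 6 measured in control), led by Adgre4 (1685, 12.9 and 11.1) and Treml4 (516, 5.06 and 5.33). The 2 measured probe sets of Adgre4 read 1.08 and 7.25 in log2 difference from control.

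Endothelial and stromal markers bear on Vcam1. Of 21, 5 were measured on either array, with 2 called higher and 1 lower, and both called higher were below the level in control. Dcn (97.0, 7.44 and 7.48) and Col1a2 (90.3, 4.53 and 8.53) were high in the NK1.1+ KO sample, each by 1 of its probe sets. The stromal genes Col1a1, Col3a1, Pdgfra, Pdgfrb, Lum and Pdpn were below the level on all arrays by their brightest probe sets. Pecam1 read 6.90, 9.41 and 46.2, and the endothelial genes Cdh5, Kdr, Tek and Vwf were below the level on all arrays. The list summed to 320.3, 145 and 184, and to 133, 133 and 168 without Dcn and Col1a2. Of 9 measured B and plasma cell markers, 4 were called higher (Jchain, Xbp1, Mzb1 and Cd22) and 1 lower. Jchain read 2282, 15.97 and 15.93, while Cd22 read 182, 359 and 82.7 and was highest in the NK1.1- KO sample. Cd79b, the 1 called lower, fell by 1.13 on the log2 scale. Ms4a1 read 108, 76.7 and 212 and was not called, and Cd79a and Pax5 were below the level on every array. Of 7 dendritic cell markers, 3 were called higher and 2 lower. Of 3 measured erythroid markers 1 was called higher, Hba-a2 at 60.7, 21.2 and 18.3, and 1 lower, Tfrc. Of 12 measured T cell and NK markers, 10 were called lower in the NK1.1+ KO sample and 1 higher, with Cd5 lower by 2.84 on the log2 scale. The part of any of these cell types in the values of the 10 genes was not tested.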

How the data were processed

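RNA of sorted CD8+ T cells was hybridised to 3 arrays, 1 a group, and groups were read from the sample titles. The deposited table holds linear intensity, 1 value a probe set, and the submitters' processing notes name GCRMA 1.1.3, with settings not stated in the sources used here. All 3 columns belonged to a sample. Of 45037 probe sets other than the 64 controls, GEO's platform annotation names exactly 1 gene for 34945, several for 932 and none for 9160; the 10 members' symbols were the same in RefSeq (GRCm38.p6). Log2 was taken with Python 3.11.15, numpy 2.4.6 and pandas 2.3.3. The level, gene rule and 2-fold line are given above, and the number of arrays limits precision. In the background set, Cryab was left out as a widely expressed stress gene. Crybg1, Crybg2 and Crybg3 stayed in, although Crybg1 read 113 in the NK1.1+ KO sample, 216 in the NK1.1- KO sample and 250 in the control sample. Without these Crybg genes the level was 9.57, and the same members were called. The members, lists and rules were chosen with earlier results of these data known. Every member was named, with the partners of each and up to 5 genes a list by absolute difference between NK1.1+ KO and control, and the 3 genes of nearest profile. Likeness used values raised to the level. Promoters are from RefSeq.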

Additional observations from a re-analysis of the deposited data

How the results depend on the processing

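The differences of the members were recomputed under 9 alternatives, 7 planned and 2, both of the level, chosen after seeing the data. No member was called lower in any comparison under any of the 9, and no called difference changed sign. Against control, Vcam1 and Slc40a1 passed 2-fold in the NK1.1+ KO sample under all 9 (4.12-fold to 83.6-fold and 7.47-fold to 28.6-fold), C1qb under 8, Adgre1 under 7 and Mertk under 6. For Vcam1 and Slc40a1 the same bright probe set entered each alternative, alone or within the mean, so the 9 do not check that set. Their other probe sets were not called: at least 0.16 or below the level for Vcam1, and at least 0.71 for Slc40a1, in log2 difference. Without any level C1qc was called higher too in the NK1.1+ KO sample (log2 difference 1.24 from control and 1.16 from NK1.1- KO). Genes called then numbered 1198 higher and 2475 lower against control, and 832 and 2317 between the KO samples. With the level raised to 54.0, the 75th percentile of all values, 3 members stayed called in the NK1.1+ KO sample against either other array and 0 in the NK1.1- KO sample against control. Genes called then numbered 559 higher and 1475 lower for NK1.1+ KO against control, 493 and 310 for NK1.1- KO against control, and 323 and 1287 between the KO samples. With unsuffixed probe sets only, 3 of 4 measured members were called in each comparison with the NK1.1+ KO sample. Genes called then numbered 822 higher and 2200 lower against control, and 576 and 2003 between the KO samples. C1qb was lost, since its unsuffixed set lies below the level, and Adgre1 had no value, since its sole probe set has a suffix. The 1 member called in the NK1.1- KO sample against control, Slc40a1, became 0 with log2(value + 32), the mean of all probe sets, quantile normalization or a level from the NK1.1+ KO sample (21.3). With log2(value + 32), genes called numbered 575 and 1460, 471 and 235, and 355 and 1180 in the same order of comparisons, and averaging the probe sets of a gene gave 537 higher against control for NK1.1+ KO, 524 and 351 for NK1.1- KO, and 311 higher between the KO samples. Equal array medians gave 1117 and 1310 between the KO samples, and moved the median log2 difference of all genes against control from -0.19 to 0.10. No paired analysis was possible because each group has 1 array, and leaving out a replicate was not possible for the same reason. Signal over background limits C1qa, C1qc, Axl, Hmox1 and Spic, whose values lie among the background set. It limits Mertk and Adgre1 too, with 5 and 2 of the 145 background probe sets as bright in the NK1.1+ KO sample. Mertk lost its call at a level of 21.3 or 54.0 and with log2(value + 32), and Adgre1 at 54.0.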
